A study of Rattus norvegicus with 12 samples.

Results

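The sarcomeric myosin heavy chains Myh1, Myh2, Myh3, Myh4, Myh6, Myh7 and Myh8 were followed in neuron-enriched cerebellar cultures of newborn rats. Members were the gene probes that the array files name for one of these 7 genes, and 9 such probes of 30367 gene probes were found, with the same names in all 12 files. Both Myh3 and Myh2 had 2 probes and the other 5 genes had 1 probe each. All 9 probes passed the signal filter, which kept 23796 probes. The genes were chosen with their signals in view: Myh3 was picked because it differed between arrays while Myh1, Myh2 and Myh8 were steadier, so this contrast is described here and was not tested.

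All cultures came from 1-day-old Sprague-Dawley rats, with the cerebellar cells of a single litter pooled for each of the 6 experiments. Control cultures received 0.001% DMSO as solvent, and the others received 1 µM acetamiprid (ACE), a neonicotinoid insecticide that acts on nicotinic acetylcholine receptors. Exposure ran from 2 days in vitro (DIV) until RNA was taken at 16 DIV, in medium with serum until 8 DIV and without it afterwards. Each of the 6 control arrays shared its replicate number, its slide and its lot of cells with 1 of the 6 ACE arrays, so control versus ACE (CvA) was read within 6 pairs. On every slide control occupied position 1 and ACE position 3, so that position and exposure cannot be told apart.

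Myosin heavy chains are the motor proteins of the thick filament. Each has a head that binds actin and hydrolyses ATP, and a long rod through which the molecules pack into filaments. Skeletal muscle uses several isoforms in sequence: Myh3 (embryonic) and Myh8 (perinatal) in developing and regenerating fibres, then Myh2, Myh1 and Myh4 in the adult fast fibre types 2A, 2X and 2B. Myh7 (slow, or beta) serves slow fibres and heart muscle, and Myh6 (alpha) serves heart muscle. None of them is a defining gene of cerebellar neurons or glia.

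The probes are given first, because paralogs this alike can share label. According to the array annotation (build rn4), the Myh3 probes A_64_P031995 and A_44_P271442 lie on the plus strand at chr10:53800042-53800098 and chr10:53800570-53800629. Along the same chromosome follow the Myh2 probes A_64_P105383 (chr10:53887030-53887089) and A_64_P109919 (chr10:53889275-53889334) and the Myh1 probe A_64_P004091 (chr10:53917888-53917947). The Myh4 probe A_64_P071692 (chr10:53951729-53951788) and the Myh8 probe A_64_P079553 (chr10:54002239-54002298) come next. The Myh6 probe A_42_P756334 (chr15:33044576-33044983) and the Myh7 probe A_64_P014607 (chr15:33073880-33073939) lie on the minus strand of another chromosome. The annotated span of the Myh6 probe, 408 bases, is longer than the 60 bases of its sequence, and that of the Myh3 probe A_64_P031995, 57 bases, is shorter. The exon or UTR that each probe falls in was not analysed here, since no rn4 gene model was used.

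The probes of Myh3, Myh8 and Myh6 below align over one stretch, and they show by how many bases the members differ there. Capitals mark bases that differ from the Myh3 probe where the probes overlap without gaps. The Myh8 probe differed at 23 of 51 overlapping bases and the Myh6 probe at 17 of 44.
Myh3 A_64_P031995: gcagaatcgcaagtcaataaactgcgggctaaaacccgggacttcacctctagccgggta
Myh8 A_64_P079553: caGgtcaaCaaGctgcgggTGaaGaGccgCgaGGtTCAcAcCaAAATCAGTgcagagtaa
Myh6 A_42_P756334: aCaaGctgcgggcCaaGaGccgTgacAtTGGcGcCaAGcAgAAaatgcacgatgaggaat
A second shared stretch is covered by a Myh2 and the Myh7 probe, where capitals mark the 15 of 44 overlapping bases at which Myh7 differs.
Myh2 A_64_P109919: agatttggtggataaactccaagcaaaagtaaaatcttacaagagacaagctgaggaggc
Myh7 A_64_P014607: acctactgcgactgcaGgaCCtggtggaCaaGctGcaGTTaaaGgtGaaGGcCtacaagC
The longest run shared by the Myh3 and Myh6 probes within their overlap was 8 bases, and by the Myh8 and Myh6 probes 12 bases. Hybridization of a paralog's label to these probes was not tested.

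Signals are given as the log2 of the processed intensity after quantile normalization, so that 1 unit is a doubling. Values of different probes were not set against each other, because probes differ in how brightly they label. Over the 12 arrays, signal was well above background for 75.4% to 91.0% of gene spots, and no gene spot was saturated (0 spots).

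Myh3, the embryonic isoform, moved most between cultures among the 7 genes. With its 2 probes averaged, its signal in control was 4.40 at the lowest, 8.61 at the median and 13.54 at the highest. In ACE it was 4.38 at the lowest, 5.25 at the median and 11.31 at the highest. The groups overlapped almost fully, and the 12 signals fell into a high and a low set: 4 arrays (control 1, 2 and 6, and ACE 1) had 10.27 or more and the other 8 arrays had 6.95 or less. The whole range was 9.16 log2 units, and its lower end lies near background. After normexp background correction, which adds an offset of 50 and so shrinks differences between low signals, the range was 7.10. On control 4 and ACE 6, neither Myh3 probe was well above background, so these low values have no order.

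Within pairs, Myh3 differed by -1.34, -8.22, -1.75, -0.02, -0.57 and -5.70 log2 units (ACE minus control, replicates 1 to 6). The differences of replicates 4 and 6 were each read against an array without signal well above background, so their sizes are uncertain, and so is that of the mean. Replicates 2 and 6 account for most of the mean difference of -2.94 ± 1.34 (SE, 6 pairs), and the median pair difference was -1.55. The mean was -1.88 without replicate 2 and -0.92 without replicates 2 and 6. The gene's value was lower in ACE in 6 of 6 pairs, but in 5 of 6 pairs for each probe read alone. It was also lower in 5 of 6 pairs after scaling to the 75th percentile (0.08 in pair 4) and after another background correction (0.01 in pair 4), so the direction in replicate 4 is not settled.

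The Myh3 probes were also read one by one. A_44_P271442 ran from 4.71 through a median of 9.08 to 13.92 in control and from 4.45 through 5.86 to 11.67 in ACE. A_64_P031995 ran from 4.09 through 8.30 to 13.15 in control and from 4.31 through 4.65 to 10.96 in ACE. They correlated at r of 0.983 over the 12 arrays, and their pair differences were at most 1.94 log2 units apart.

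**Figure D1:**
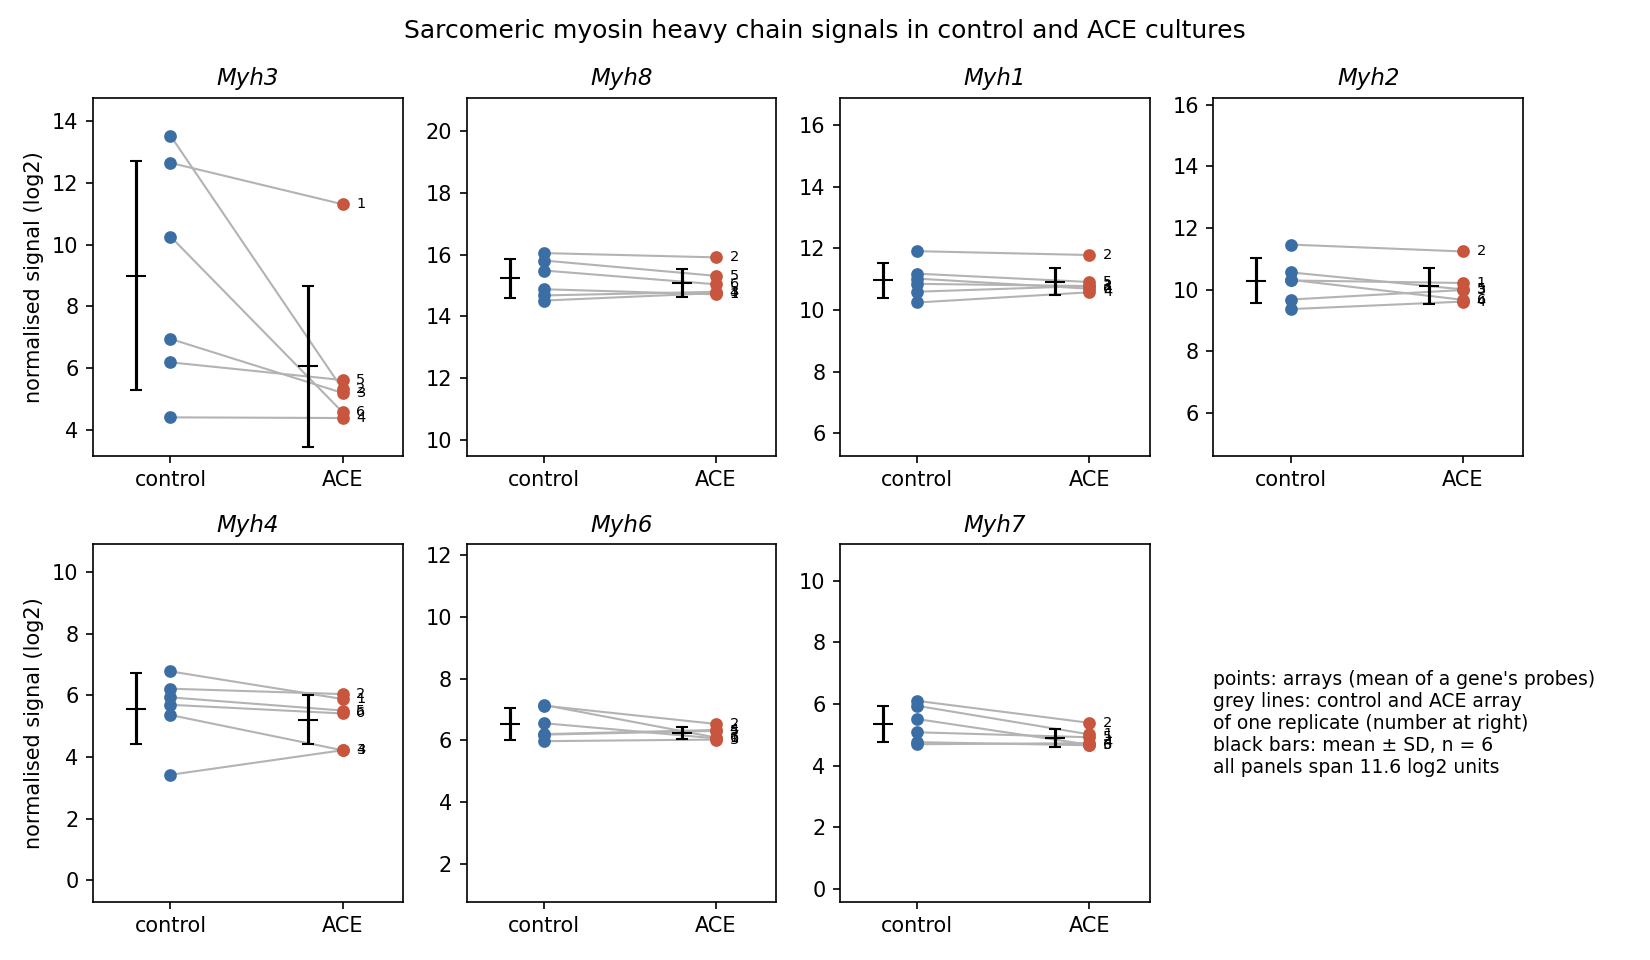
Normalised log2 signal (y axis) of each of the 7 genes in the 6 control (blue) and 6 ACE (red) arrays, with a grey line joining the arrays of a replicate and black bars for the mean ± SD. All panels span the same number of log2 units: Myh3 ranges over 9.16 units, and the next widest gene, Myh4, over 3.35.

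Myh8, the perinatal isoform, was well above background on all 12 arrays. It was 14.51 at the lowest, 15.18 at the median and 16.05 at the highest in control. In ACE it was 14.71 at the lowest, 14.92 at the median and 15.91 at the highest. The groups overlapped, its range was 1.54 log2 units, and the mean pair difference was -0.15 ± 0.12 (SE, 6 pairs, lower in 4 of 6).

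Myh1, of adult fast 2X fibres, ran from 10.24 through a median of 10.93 to 11.90 in control and from 10.57 through 10.77 to 11.78 in ACE. Its mean pair difference was -0.05 ± 0.11 (SE, 6 pairs, lower in 4 of 6), and it was 0.01 without replicate 6. Myh2, of adult fast 2A fibres and averaged over its 2 probes, ran from 9.37 through 10.30 to 11.46 in control and from 9.61 through 9.99 to 11.23 in ACE. Its mean pair difference was -0.16 ± 0.16 (SE, 6 pairs, lower in 4 of 6), and its probes correlated at r of 0.929. For both genes the groups overlapped, and the highest array of each group was that of replicate 2.

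Myh1, Myh2 and Myh8 moved together over the arrays. All 4 of their probes were well above background on all 12 arrays. Over the 12 arrays r was 0.978 for Myh1 with Myh2, 0.922 for Myh8 with Myh1 and 0.872 for Myh8 with Myh2. Over the 6 pair differences r was 0.957, 0.976 and 0.963 for the same pairs of genes. These are descriptions over arrays that share slides and lots of cells. Without the high replicate 2, r over the other 10 arrays was 0.925 for Myh1 with Myh2, 0.872 for Myh8 with Myh1 and 0.714 for Myh8 with Myh2.

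The r of Myh3 over the 12 arrays was 0.252 with Myh8, 0.410 with Myh1 and 0.535 with Myh2, and its rho with Myh2 was 0.713. Without replicate 2 its r was 0.0676 with Myh8, 0.393 with Myh1 and 0.635 with Myh2. Read by group, r with Myh8, Myh1 and Myh2 was 0.473, 0.703 and 0.746 in the 6 control arrays and -0.298, -0.0601 and 0.176 in the 6 ACE arrays, and the difference between groups was not tested. Among the 8 arrays with the lower Myh3 signals, r was 0.279 with Myh8, 0.279 with Myh1 and 0.297 with Myh2. On control 2, the array with the highest Myh3 signal, Myh3 stood 6.01 log2 units above its own mean and the mean of Myh1, Myh2 and Myh8 stood 1.04 above its own. On ACE 2, from the same lot of cells, Myh3 stood at -2.22 while the mean of the other 3 genes stood at 0.88. On control 1 and ACE 1 the Myh3 deviations were 5.13 and 3.78, and those of the 3-gene mean were -0.09 and -0.20.

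**Figure D2:**
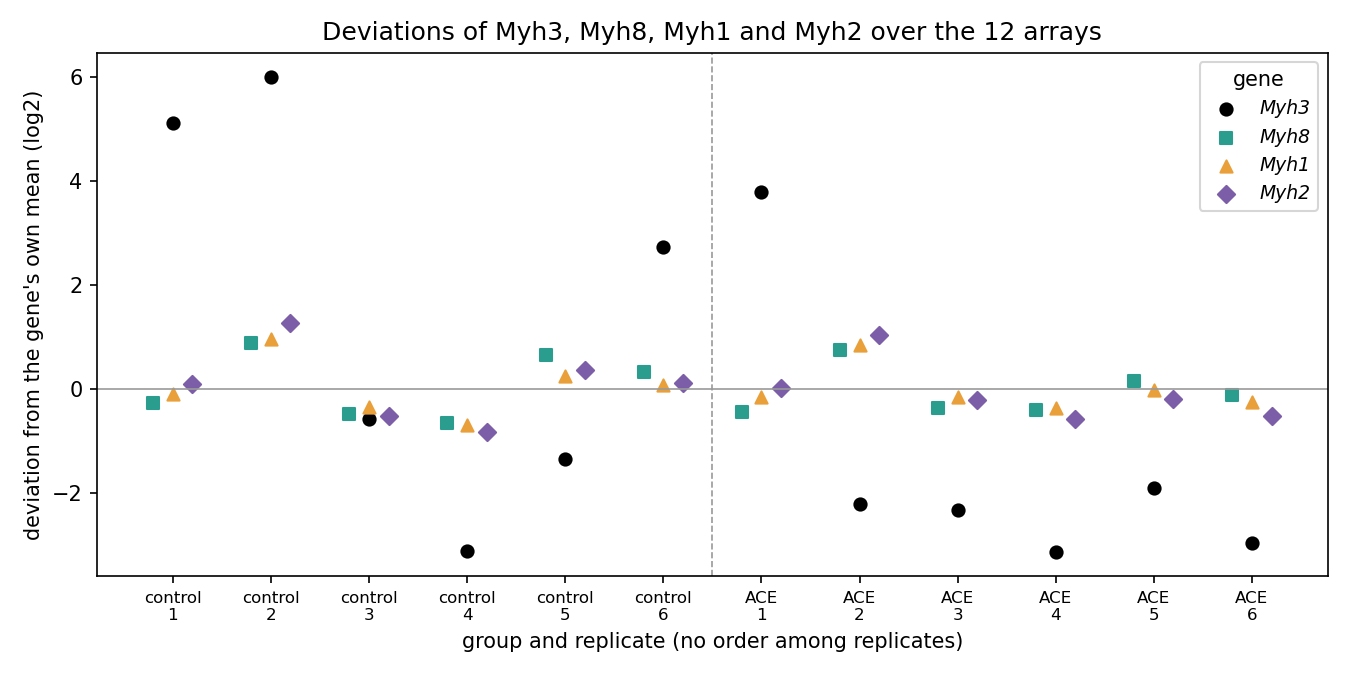
Deviation of each gene from its own mean over the 12 arrays (y axis, log2 units), by group and replicate (x axis), for Myh3 (circles), Myh8 (squares), Myh1 (triangles) and Myh2 (diamonds). Myh3 spans -3.15 to 6.01, while Myh8, Myh1 and Myh2 stay between -0.83 and 1.26 and move with each other.

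The mean of Myh1, Myh2 and Myh8 ranged over 1.77 log2 units, and over 1.14 without replicate 2. Its pair differences were -0.11, -0.16, 0.20, 0.27, -0.44 and -0.48, with a mean of -0.12 ± 0.13 (SE, 6 pairs). The difference of Myh3 from that mean changed by -1.24, -8.06, -1.96, -0.29, -0.14 and -5.22 in the 6 pairs, with a mean of -2.82 ± 1.29 (SE, 6 pairs). That mean was -1.77 without replicate 2, -0.91 without replicates 2 and 6, and -1.88 within the scan day that held replicates 4, 5 and 6. Each other scan day held a single pair and gave no separate error.

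Control and ACE cultures of the same lot were compared next. Over the 6 pairs, the control signal correlated with the ACE signal at r of 0.903 for Myh8, 0.900 for Myh1, 0.840 for Myh2 and 0.510 for Myh3. This order rests on replicate 2, without which r was 0.933 for Myh8, 0.766 for Myh1, 0.465 for Myh2 and 0.749 for Myh3. In these bulk extracts, fewer cells that hold a transcript and less of it per cell cannot be told apart.

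**Figure D3:**
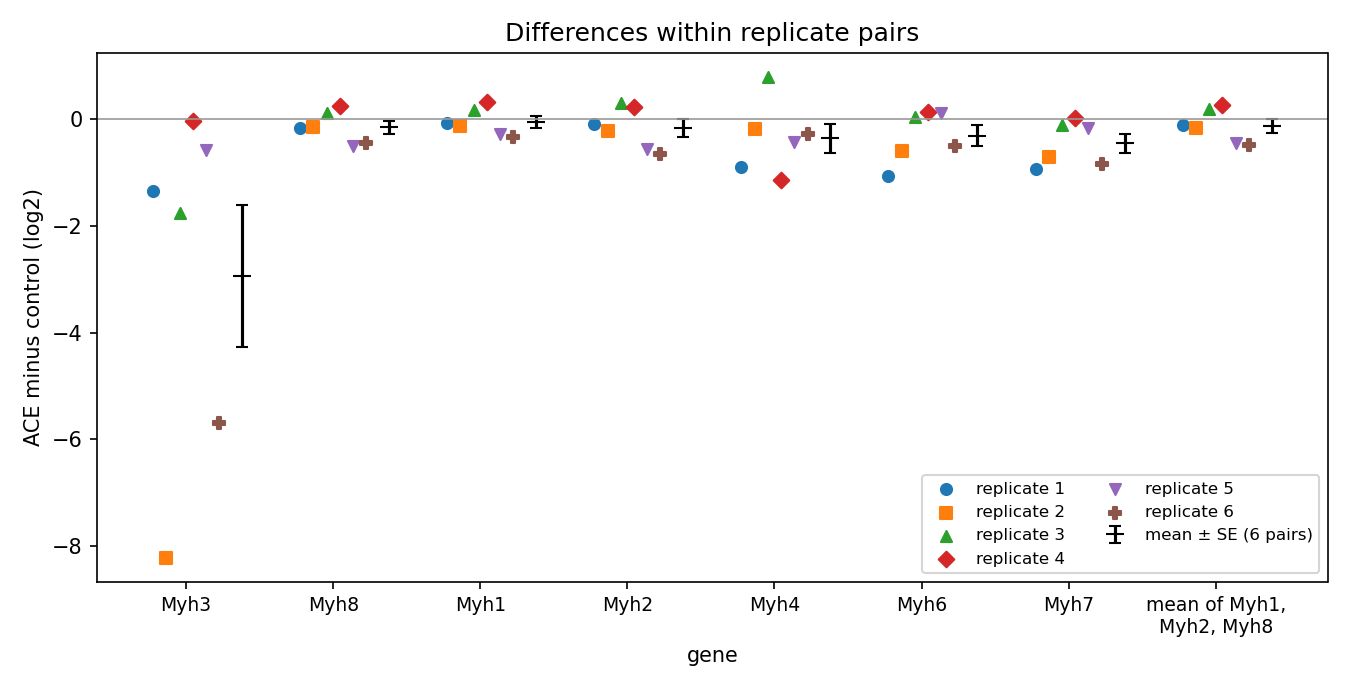
ACE minus control difference (y axis, log2 units) of each gene (x axis) in each of the 6 replicate pairs (coloured symbols), with the mean ± SE in black. The Myh3 differences of replicates 2 (-8.22) and 6 (-5.70) stand apart from all other points, which lie between -1.75 and 0.80.

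The remaining 3 members spanned 3.35 (Myh4), 1.44 (Myh7) and 1.17 (Myh6) log2 units. Myh4, of adult fast 2B fibres, ran from 3.43 through a median of 5.82 to 6.78 in control and from 4.22 through 5.46 to 6.04 in ACE, and it was well above background on all 12 arrays. Its mean pair difference was -0.35 ± 0.28 (SE, 6 pairs, lower in 5 of 6). Its groups overlapped, and replicate 3 held the lowest control value.

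The cardiac pair lies side by side on another chromosome. Myh6 ran from 5.98 through 6.38 to 7.15 in control and from 6.03 through 6.20 to 6.54 in ACE, with a mean pair difference of -0.31 ± 0.20 (SE, 6 pairs, lower in 3 of 6). Myh7 ran from 4.69 through 5.29 to 6.10 in control and from 4.66 through 4.82 to 5.38 in ACE, with a mean pair difference of -0.45 ± 0.17 (SE, 6 pairs, lower in 5 of 6) that was -0.19 after normexp. Myh7 was well above background on 11 of 12 arrays, ACE 6 being the exception. The groups overlapped for both genes.

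Myh6 and Myh7 moved with each other, at r of 0.935 over the 12 arrays and 0.944 over the 6 pair differences. Both were higher on control 1 and control 2 than on the other 4 control arrays, which are also the control arrays with the highest Myh3 signals. Their r with Myh3 was 0.703 for Myh6 and 0.832 for Myh7 over the 12 arrays, and -0.303 and 0.298 among the 8 arrays with the lower Myh3 signals. By rank, Myh7 with Myh3 gave rho of 0.804 over the 12 arrays and 0.548 among the 8. On ACE 1, where Myh3 was high, Myh6 and Myh7 stood at -0.29 and -0.11 from their own means. Myh7 also went with the fast and perinatal isoforms, at r of 0.606 with Myh8, 0.708 with Myh1 and 0.783 with Myh2 over the 12 arrays. Among the 8 arrays these were 0.904, 0.926 and 0.940, with rho of 0.619, 0.619 and 0.690. Over the 10 arrays without replicate 2, r was lower, at 0.333, 0.510 and 0.676.

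Across all 23796 probes, limma with the replicate as a block called 0 probes in CvA at an adjusted p of 0.05 (0% of those tested; lowest adjusted p 0.141). At an unadjusted p of 0.05, limma called 3956 probes (16.6%), of which 1641 were higher in ACE (6.9%) and 2315 lower (9.73%). The exact signed-rank test over pairs called 2755 probes at the same unadjusted threshold. Of the 9 member probes, 0 were called after adjustment and 2 before it, 1 for Myh3 (A_64_P031995) and that of Myh7, both lower in ACE. The signed-rank test called 0 of the 9 member probes. These counts describe probes that were picked from this contrast, and nothing is read from them.

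The windows upstream of the genes were compared, because Myh1, Myh2 and Myh8 moved together. All 7 members had a RefSeq promoter sequence in build GRCr8, a newer build than that of the probes, and the 250 bases before the annotated start were searched on both strands. Capitals mark TATAAA and, in Myh2 and Myh1, a run of 20 bases that they share with Myh4.
Myh3 chr10:52268935-52269184, plus strand: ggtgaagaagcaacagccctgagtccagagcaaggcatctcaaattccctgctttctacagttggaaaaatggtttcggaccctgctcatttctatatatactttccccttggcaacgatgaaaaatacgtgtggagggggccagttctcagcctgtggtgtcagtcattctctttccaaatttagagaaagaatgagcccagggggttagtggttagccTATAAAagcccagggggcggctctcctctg
Myh2 chr10:52355489-52355738, plus strand: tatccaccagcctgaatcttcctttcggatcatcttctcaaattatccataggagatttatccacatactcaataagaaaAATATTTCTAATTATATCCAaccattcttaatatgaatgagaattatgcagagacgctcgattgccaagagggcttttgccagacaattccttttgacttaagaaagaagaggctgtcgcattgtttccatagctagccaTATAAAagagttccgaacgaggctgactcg
Myh1 chr10:52384662-52384911, plus strand: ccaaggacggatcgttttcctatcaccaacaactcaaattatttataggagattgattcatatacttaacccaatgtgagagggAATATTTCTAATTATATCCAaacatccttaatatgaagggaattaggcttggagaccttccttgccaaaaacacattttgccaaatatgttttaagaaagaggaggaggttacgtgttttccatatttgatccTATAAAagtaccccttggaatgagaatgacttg
Myh8 chr10:52462259-52462508, plus strand: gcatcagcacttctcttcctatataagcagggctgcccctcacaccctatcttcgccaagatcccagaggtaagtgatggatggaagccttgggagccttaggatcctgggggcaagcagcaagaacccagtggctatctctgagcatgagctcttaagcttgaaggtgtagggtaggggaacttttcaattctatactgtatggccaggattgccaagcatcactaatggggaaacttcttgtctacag
TATAAA stood 30 bases before the annotated start in Myh3 and Myh2 and 33 in Myh1, and it was found in 12.9% of 33469 such windows. The Myh8, Myh6 and Myh7 windows held no TATAAA. The Myh8 window ends in letters like those at the end of an intron, so it may lie inside the gene. Whether the annotated Myh8 start is the one used in these cultures was not tested. The shared run of 20 bases began 170 bases before the start in Myh2, 166 in Myh1 and 177 in Myh4, and no other gene's windows held it except 2 windows of an uncharacterised locus, LOC102555216. The Myh8 window did not hold it: the longest run that it shared with both the Myh1 and Myh2 windows was 7 bases. CANNTG, the E-box bound by myogenic factors, matched at 1 place in Myh3, at 2 in Myh4, at 1 in Myh6, at 3 in Myh7 and not in Myh1, Myh2 or Myh8, against 65.5% of all windows. The MEF2 consensus matched in Myh1 and Myh4 (2.96% of windows) and the CArG box in Myh4 (1.5%). A match of letters shows no binding, and a missing match says nothing of the factor. For Myh8 the missing matches hold for the searched window only, and nothing is read from them about its promoter.

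The genes whose signals were most like each member were taken from 14976 probes that were well above background on all 12 arrays. For Myh3 these were Mylpf (now named Myl11; the fast regulatory light chain; r of 0.987), Acta1 (skeletal actin; 0.973) and Myl4 (the embryonic and atrial light chain; 0.971). Ankrd1, a muscle ankyrin repeat protein, followed at 0.961 and Actc1, cardiac actin, at 0.952. Leaving out the 2 arrays farthest from the median of Myh3 kept r between 0.888 and 0.968. Among the 8 arrays with the lower Myh3 signals r was 0.698 for Mylpf, 0.555 for Acta1, 0.444 for Ankrd1, 0.243 for Myl4 and -0.098 for Actc1. The likeness thus lay mainly in which arrays were high.

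The genes most like Myh1, Myh2 and Myh8 were others. For Myh8 they were Ephb3 (an ephrin receptor; r of 0.954), Il1r2 (a decoy receptor for interleukin 1; 0.950) and Hook2 (a microtubule-linked adaptor; 0.949). For Myh1 they were Cldn19 (a claudin; 0.984), Cited2 (a transcriptional coregulator; 0.984) and Crip1 (a LIM domain protein; 0.968). For Myh2 they were Cited2 (0.979), Fmod (fibromodulin, a collagen-binding proteoglycan; 0.968) and Pdlim7 (a PDZ and LIM domain protein; 0.967). Their own signals ran over the 12 arrays from 9.32 to 9.77 for Ephb3, 7.77 to 9.07 for Il1r2, 10.57 to 12.12 for Cldn19, 8.83 to 10.12 for Cited2 and 15.40 to 16.45 for Fmod.

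For Myh4 the most alike were Thsd1 (r of 0.948), Nhlh1 (a neuronal helix-loop-helix factor; 0.940) and Hnrnpk (an RNA-binding protein; 0.934). For Myh6 they were Mybpc1 (slow myosin-binding protein C; 0.902), H19 (an imprinted noncoding RNA; 0.887) and Hrc (a calcium-binding protein of the sarcoplasmic reticulum; 0.872). Without the 2 arrays farthest from the median of Myh6, these fell to 0.737, 0.519 and 0.655. Each value is over 12 arrays that form 6 pairs, and none was tested.

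Myosin heavy chains work with pairs of light chains bound to the neck of the head. Of 6 light chain genes, 5 were tested, 0 passed limma's adjusted threshold and 0 the unadjusted one (beside 16.6% of all probes), and their median difference was -0.07 against -0.00499 over all probes. Mylpf was 7.23 at the lowest, 9.96 at the median and 14.53 at the highest in control, and 7.12, 7.42 and 12.75 in ACE. Like Myh3 it was high on control 1, 2 and 6 and on ACE 1, and its mean pair difference was -2.18 ± 1.24 (SE, 6 pairs, lower in 4 of 6). Myl4 differed by -1.37 ± 0.83 (SE, 6 pairs, lower in 5 of 6) and Myl2, the slow and ventricular chain, by 0.09 ± 0.31. Without replicate 2 the differences were -1.13 for Mylpf and -0.63 for Myl4, and without replicates 2 and 6 they were -0.35 and -0.22. Myl2 was well above background on 4 of 12 arrays, and Myl1 did not pass the signal filter.

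Folding and assembly of the heavy chains needs dedicated partners. Of 15 such genes, 13 had a probe and 10 were tested, with 0 past limma's adjusted threshold, 2 lower and 1 higher at the unadjusted one (beside 9.73% and 6.9% of all probes), and a median of -0.19. Unc45b, the myosin chaperone of striated muscle, ran from 6.22 through 6.49 to 8.86 in control and from 5.70 through 6.02 to 7.64 in ACE, and differed by -0.85 ± 0.39 (SE, 6 pairs, lower in 6 of 6). It was the lower call together with Myom1 (myomesin, of the M band; -0.34 ± 0.14), and Mybpc2 (fast myosin-binding protein C; 0.13 ± 0.04) was the higher one. Myom1 and Mybpc2 were named after their values were seen. Mybph differed by -0.84 ± 0.45 and Smyd1, a methyltransferase needed for thick filament assembly, by -0.49 ± 0.24 (SE, 6 pairs each). Mybph was well above background on 7 of 12 arrays and Smyd1 on 5, and after normexp background correction they differed by -0.36 and -0.12. Without replicate 2 the differences were -0.48 for Unc45b, -0.50 for Mybph and -0.29 for Smyd1.

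The thin filament is the track on which these motors pull. Of 18 genes, 17 were tested, and 16 had a mean below 0, with a median of -0.51. After adjustment 0 passed in limma, and before it 2 of 17 passed as lower, beside 9.73% of all probes, and 0 as higher. Lmod3, a leiomodin that nucleates actin filaments, ran from 4.88 through 7.26 to 8.44 in control and from 4.44 through 5.27 to 6.17 in ACE, and differed by -1.76 ± 0.60 (SE, 6 pairs, lower in 5 of 6). Lmod3 had 2 probes, of which 1 was tested, and without the signal filter the mean of both differed by -1.32. The highest control array of the tested probe was that of replicate 5, unlike Myh3. Lmod2 differed by -1.66 ± 0.75 (lower in 6 of 6), and both leiomodins were the unadjusted calls. Acta1 differed by -1.45 ± 0.81 (lower in 5 of 6) and Actc1 by -1.14 ± 0.58 (lower in 6 of 6). Replicate 2 carried much of these means: without it they were -0.97 for Lmod2, -0.75 for Acta1 and -0.63 for Actc1. After normexp background correction Lmod3 differed by -1.02 and Lmod2 by -1.01.

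Myogenic regulators switch on these genes in muscle precursors. Of 14, 13 had a probe and 8 were tested, with 0 past limma's adjusted threshold, 2 lower and 1 higher at the unadjusted one (beside 9.73% and 6.9% of all probes), and a median of -0.06. Myog (myogenin) ran from 5.72 through 6.36 to 8.60 in control and from 5.57 through 5.92 to 7.56 in ACE, and differed by -0.75 ± 0.32 (SE, 6 pairs, lower in 6 of 6). Its r with Myh3 was 0.904 over the 12 arrays and that with the mean of Myh1, Myh2 and Myh8 was 0.473. Myf5 differed by -0.23 ± 0.06 (lower in 5 of 6, and -0.15 after normexp) and Six4 by -0.24 ± 0.49 (lower in 3 of 6, and 0.22 without replicate 6). The Myog difference was -0.45 without replicate 2 and -0.50 after normexp. The higher call was 1 of the Pax3 probes, named after its value was seen. Myod1 did not pass the signal filter.

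Class II heavy chains outside the 7 members were read as well. All 7 of them were tested and well above background on all 12 arrays, with 0 past limma's adjusted threshold, 1 lower and 0 higher at the unadjusted one (beside 9.73% and 6.9% of all probes), and a median of -0.05. The nonmuscle chains Myh9 and Myh10 ranged from 7.88 to 8.74 and from 10.03 to 10.63 over the 12 arrays, and differed by -0.05 ± 0.05 and 0.03 ± 0.05 (SE, 6 pairs). Myh14, also nonmuscle, was the lower call at -0.34 ± 0.12. Myh15 differed by -0.63 ± 0.38, with r of 0.858 with Myh3, and by -0.30 without replicate 2 and -0.36 after normexp. Myh13, the extraocular isoform next to Myh8 on the chromosome, differed by 0.27 ± 0.18, with 0.01 and 0.52 for its 2 probes and 0.13 without replicate 3.

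**Figure D4:**
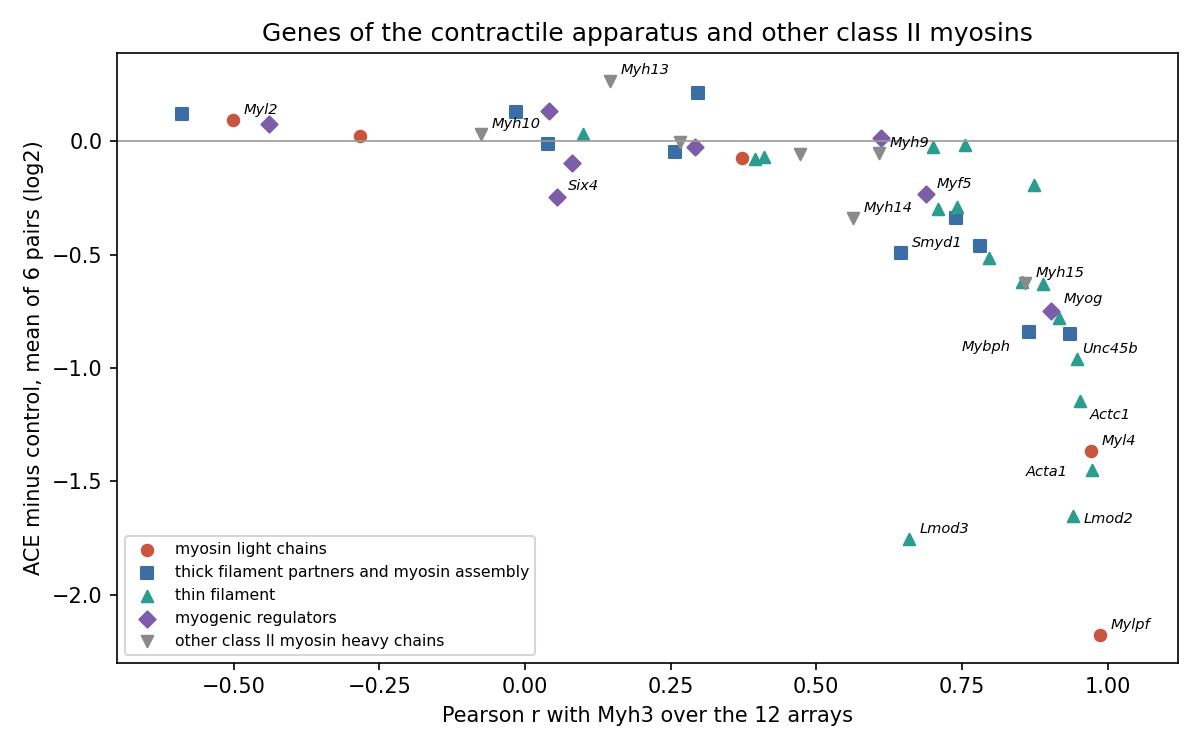
Mean ACE minus control difference of 6 pairs (y axis, log2 units) against Pearson r with Myh3 over the 12 arrays (x axis) for each tested gene of 5 lists (symbols). Mylpf, Acta1, Myl4 and Actc1 sit at r of 0.952 or more with differences of -1.14 to -2.18, and Lmod3 lies apart at r of 0.660.

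Markers of other cell types were read beside the members. All 8 skeletal muscle markers were tested and had a lower mean in ACE, with a median of -0.94 and differences from -0.29 to -2.18. After adjustment 0 passed in limma, and before it 1 of 8 passed as lower (Myog), beside 9.73% of all probes, and 0 as higher. The list mean differed by -1.05 and was lower in 4 of 6 pairs, and it differed by -0.48 without replicate 2 and by -0.18 without replicates 2 and 6. Their summed signal on the linear scale was 1542 to 36289 in control and 1344 to 13800 in ACE. Their mean log2 signal followed Myh3 (r of 0.967, rho of 0.832 over 12 arrays, and r of 0.566 among the 8 arrays with the lower Myh3 signals) and less so the mean of Myh1, Myh2 and Myh8 (0.379). The latter r was 0.194 without replicate 2 and 0.0274 without the 2 arrays farthest from the median of the list. Of the 8, 5 were well above background on all 12 arrays, Des (desmin) on 10, Actn2 on 7 and Ckm (muscle creatine kinase) on 4. The skeletal muscle list shares 5 genes with the lists above. What part cells with these transcripts had in the Myh3 signal was not tested.

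Cardiac markers had a summed signal of 902 to 1286 in control and 836 to 1245 in ACE, and their mean had r of 0.717 with Myh3 (0.536 without the 2 farthest arrays, and -0.395 among the 8 arrays with the lower Myh3 signals). With the 3-gene mean it was 0.419, which became 0.687 without the 2 farthest arrays and 0.180 without replicate 2. Of 7 tested, Nkx2-5 (-0.24 ± 0.07, lower in 6 of 6) and Nppb (0.26 ± 0.12, lower in 2 of 6) passed the unadjusted threshold, beside 16.6% of all probes, and both were named after their values were seen. Nkx2-5 was well above background on 7 of 12 arrays and Nppb on 4. Gata4 did not pass the signal filter. Smooth muscle and pericyte markers summed to 10217 to 15378 in control and 9262 to 14684 in ACE, and their mean had r of 0.562 with Myh3 and 0.739 with the 3-gene mean. The r of the smooth muscle mean with Myh3 was 0.0168 among the 8 arrays with the lower Myh3 signals and 0.705 without replicate 2. Meningeal fibroblast markers summed to 59838 to 101810 in control and 58004 to 105540 in ACE, and their mean had r of 0.185 with Myh3 and 0.452 with the 3-gene mean. The r of the fibroblast mean with Myh3 was 0.557 among those 8 arrays and 0.0417 without replicate 2. Without the 2 arrays farthest from the median of the list, r with the 3-gene mean was 0.257 for smooth muscle and 0.897 for meningeal fibroblasts. Without replicate 2, a setting added after the data were seen, it was 0.257 and 0.0375, so neither list held a steady relation to the 3-gene mean. Single fibroblast markers ranged in r with the 3-gene mean from -0.0511 (Dcn) to 0.827 (Col1a2), and with Myh3 from -0.138 (Lum) to 0.574 (Col1a1). Whether such cells carried the Myh1, Myh2 and Myh8 signals was not tested.

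The cultures carried the markers of their labelled type. Well above background on all 12 arrays were 4 of 5 neuronal markers with a probe (Syt1 was so on 10), 4 of 4 granule cell, 4 of 4 Purkinje cell and 4 of 4 astrocyte markers. ACE minus control, the list mean differed by 0.11 for neuronal markers (lower in ACE in 1 of 6 pairs) and -0.01 for granule cell markers (4 of 6). It differed by -0.08 for Purkinje cell markers and -0.07 for astrocyte markers (5 of 6 each). These list means were not tested. The mean of the neuronal markers had r of -0.616 with Myh3 over 12 arrays, but its genes were split, from -0.807 for Snap25 to 0.549 for Map2. The mean of the granule cell markers had r of -0.573 with Myh3 over 12 arrays, -0.822 without replicate 2 and -0.0351 among the 8 arrays with the lower Myh3 signals, with genes from -0.679 (Neurod1) to 0.269 (Pax6). The mean of the astrocyte markers had r of 0.563 with Myh3. Among those 8 arrays the neuronal and astrocyte values were -0.404 and 0.0886.

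**Figure D5:**
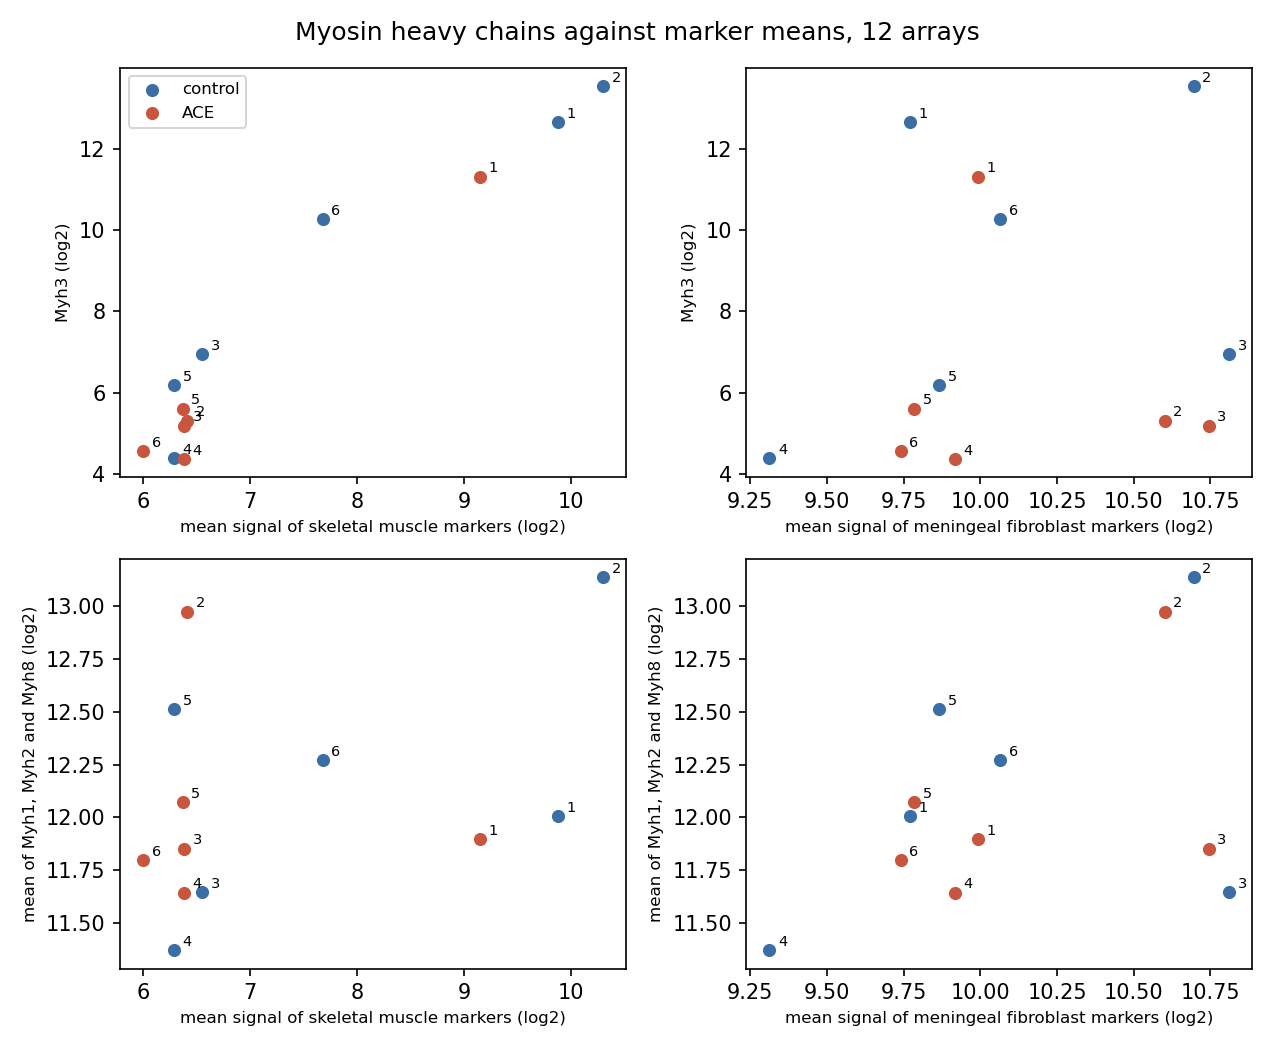
Log2 signal of Myh3 (upper panels) and of the mean of Myh1, Myh2 and Myh8 (lower panels) against the mean log2 signal of skeletal muscle markers (left) and meningeal fibroblast markers (right) in control (blue) and ACE (red) arrays, numbered by replicate. Myh3 and the skeletal muscle markers are high on the same 4 arrays, control 1, 2 and 6 and ACE 1, whereas the 3-gene mean is highest on the arrays of replicate 2 in both groups.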

How the data were processed

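Labelled cRNA of 6 control and 6 ACE cultures was read on 1-colour oligonucleotide arrays. Per the file headers, the authors extracted the processed intensity of each spot, background-subtracted, spatially detrended and not scaled between arrays, using Agilent Feature Extraction 11.0.1.1 for replicate 1 and 11.5.1.1 for the other 10 arrays. The deposited log2 value table was quantile normalized and centred on each probe's median by the authors and served as an alternative source. The deposited intensity values were set to log2 here, outlier spots were removed, arrays were quantile normalized and spots of a probe were averaged. Probes above their array's 20th percentile on 7 or more of the 12 arrays, with 4 or more complete pairs, were kept. CvA was fitted with limma 3.58.1 in R 4.3.3 (two-sided, Benjamini-Hochberg), with the replicate as a block. The block comes from the study's methods, which prepared each experiment from 1 litter. It was checked in the values: same-numbered arrays had deviations from the group means correlated at 0.449 to 0.912, and others at -0.439 to 0.390. The fit was tested on simulated data.

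The members, gene lists and contrasts were chosen with earlier results of these data known. Named were all members, the 5 genes most like Myh3, the 3 most like each other member that was well above background on all arrays, and in each of 5 lists the first 2 genes and the 3 with the largest differences. Probes of a gene were averaged. Marker lists covered skeletal, cardiac and smooth muscle, neurons, granule cells, Purkinje cells, astrocytes and meningeal fibroblasts. Spread between replicates is that between lots of cells, and the number of arrays limits the precision. Alternatives were other scalings, background corrections, filters, blocks, tests and left-out replicates. The normexp background correction added an offset of 50 to each signal. This by itself shrinks log2 differences between low signals, such as those of Myh4, Myh6 and Myh7.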

Additional observations from a re-analysis of the deposited data

Results flagged for a closer look

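Of 90 sets of 6 values examined (control arrays, ACE arrays or pair differences of the named genes and means), 18 held a value far from the other 5. Chance flags about 1 in 20 such sets, and genes that move together give repeated flags. Most of them came from ACE replicate 1, which stood above the other 5 ACE arrays for both Myh3 probes (11.67 against 5.99 at most for A_44_P271442, and 10.96 against 5.23 for A_64_P031995) and for the difference of Myh3 from the mean of Myh1, Myh2 and Myh8 (-0.59 against -6.46). The same array stood above the others for Mylpf (12.75), Myl4 (9.99), Acta1 (9.86), Actc1 (13.05), Lmod2 (7.69), Unc45b (7.64) and the mean of the skeletal muscle markers (9.15). Myh9 was far above the rest in replicate 1 of both groups (8.74 in control and 8.71 in ACE).

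ACE replicate 2 stood above the other ACE arrays for the Myh1 probe (11.78), the Myh2 probe A_64_P109919 (12.52) and the mean of Myh1, Myh2 and Myh8 (12.97), with 10.90, 11.27 and 12.07 as the next highest. Among pair differences, Unc45b (-2.72) and Myog (-2.27) were far below the others in replicate 2, and Six4 (-2.57) in replicate 6.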

How the results depend on the processing

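The replicate block decides how many probes pass the unadjusted threshold: 81 without the replicate block against 3956 with it. As a random block, 5 probes passed the adjusted threshold against 0, and 0 of them were member probes or listed genes. No other setting gave an adjusted call. The unadjusted count was 2820 to 4166 when a replicate was left out and 1881 without replicates 2 and 6 (an alternative added after the data were seen), where fewer arrays were fitted. The difference of Myh3 from the mean of Myh1, Myh2 and Myh8 stayed below 0 in the 12 alternatives that could move it (filters and blocks cannot move a mean of pair differences), at -3.35 to -1.77 with a replicate left out (-1.77 without replicate 2, -0.91 without replicates 2 and 6) and at -2.09 after normexp background correction. The range of Myh3 was 8.28 to 9.16 with a replicate left out and 7.10 after normexp. That of the 3-gene mean was 1.14 to 1.77, and 1.14 without replicate 2 or without replicates 2 and 6. Of the members, Myh1 changed sign in 2 of these 12, at 0.01 without replicate 6 and 0.04 without replicates 2 and 6, and the other 6 members kept theirs. Their sizes moved: after normexp Myh7 differed by -0.19, Myh4 by -0.18 and Myh6 by -0.18, and with a replicate left out the smallest were -0.06 for Myh2 (replicate 6), -0.15 for Myh6 (replicate 1), -0.20 for Myh4 (replicate 4) and -0.08 for Myh8 (replicate 5). The likeness of Hnrnpk to Myh4 fell to 0.814 after normexp and 0.767 in the deposited table. Low Myh3 signals lie near background, which limits the size of any difference that reaches them.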
